A study of Arabidopsis thaliana with 12 samples.

Results

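Cpn60beta3 (AT5G56500) and AT1G68660 are nuclear genes of Arabidopsis thaliana for plastid protein folding and plastid protein degradation. Cpn60beta3 encodes a beta subunit of the plastid chaperonin. AT1G68660 encodes ClpS1, which brings substrates to the Clp protease of the plastid. Each was measured by 1 array feature annotated to that gene alone, so they account for 2 of the 692 features with exactly 1 gene, in a table of 3439 features. They were picked for their changes in earlier work on these same arrays, Cpn60beta3 as an increase and AT1G68660 as a decrease in ppi1. Their ppi1 and WT levels are therefore given as a description, with no test.

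The arrays hold total RNA of the ppi1 mutant (6 arrays) and of the wild type, WT (6 arrays), both labelled ecotype Columbia 0, with replicate numbers 1 to 6 in each group. The labels describe ppi1 as defective in chloroplast precursor import, and as background it is known as a mutant of TOC33, an import receptor of the outer chloroplast envelope. Tissue, plant age, any treatment and any pooling of plants are not given in the labels. Nor do the labels say that replicates are different plants, so the p-values reflect the spread among these arrays, which could be technical alone. No feature was annotated to TOC33 or to any other of the 16 listed import genes alone, so the genotype could not be checked, and the same was true of the 4 listed markers of senescent and non-green tissue. Levels are relative hybridisation intensities after quantile normalisation across arrays.

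Most plastid proteins are made in the cytosol as precursors, cross the envelope unfolded, lose their transit peptide and then fold in the stroma. The chaperonin is a ring of Cpn60 alpha and beta subunits in which proteins such as the large subunit of Rubisco fold, helped by the co-chaperonins Cpn20 and Cpn10. The Clp protease is the main soluble protease of the stroma: a proteolytic core of ClpP and ClpR subunits receives substrates unfolded by the ClpC and ClpD chaperones. ClpS1 recognises certain substrates and hands them to ClpC, and works together with a second adaptor, ClpF.

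Arrays of neighbouring number lay close together. Replicates 1 and 2, 3 and 4, and 5 and 6 of a group differed by a median absolute log2 value of 0.0861 to 0.122 over all features, against 0.158 to 0.314 for other arrays of the same group. Whether these are repeated measurements of 1 sample is not stated in the labels, and results are therefore also given for these sets. Summed deposited intensity was 3599 to 3689 on the ppi1 arrays and 3380 to 3582 on the WT arrays, and the array medians were 0.563 to 0.645 in ppi1 and 0.475 to 0.520 in WT. With each array left on its deposited scale, the median feature was 0.21 higher in ppi1 on the log2 scale.

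The Cpn60beta3 signal was higher in ppi1. It was 0.459 at the lowest, 0.505 at the median and 0.626 at the highest over the 6 ppi1 arrays, against 0.334, 0.399 and 0.443 over the 6 WT arrays. All ppi1 arrays lay above all WT arrays, although the lowest ppi1 array (replicate 5) stood close to the highest WT array (replicate 2). The mean was 0.516 ± 0.0620 in ppi1 and 0.398 ± 0.0406 in WT (SD, n = 6 each), a ratio of 1.30 and a log2 difference of 0.37 (SE 0.0894). Between arrays of the same number, ppi1 was higher in 6 of 6, by 0.16 to 0.50 on the log2 scale. The count follows from the groups not overlapping. In RNA from whole samples, more cells that express a gene and more RNA per cell cannot be told apart.

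The AT1G68660 signal was lower in ppi1. It was 0.409 at the lowest, 0.700 at the median and 0.745 at the highest over the ppi1 arrays, against 0.992, 1.05 and 1.09 over the WT arrays. The groups were well apart, with every ppi1 array below every WT array. The mean was 0.638 ± 0.139 in ppi1 and 1.05 ± 0.0354 in WT (SD, n = 6 each), a ratio of 0.596 and a log2 difference of -0.75 (SE 0.140). Between arrays of the same number, ppi1 was lower in 6 of 6, which again follows from that separation, and the log2 difference ran from -1.35 to -0.46.

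**Figure D1:**
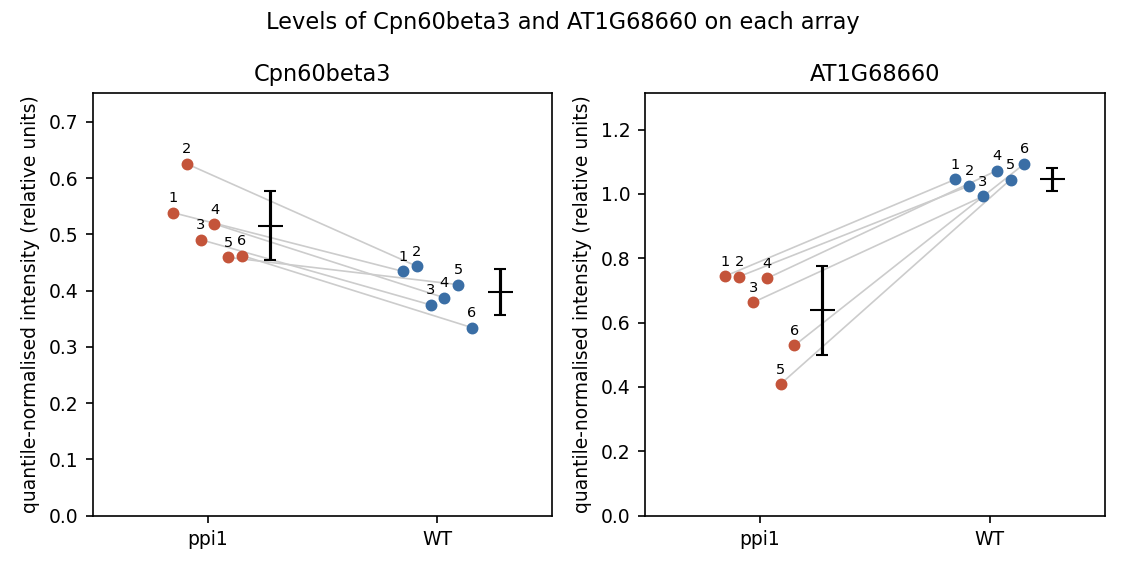
Quantile-normalised intensity (relative units, y axis from 0) of Cpn60beta3 and AT1G68660 on the 6 ppi1 arrays and the 6 WT arrays; digits are replicate numbers, grey lines join arrays of the same number, and bars show the mean ± SD. All ppi1 arrays lie above the WT arrays for Cpn60beta3 and below them for AT1G68660, where ppi1 replicates 5 (0.409) and 6 (0.529) are lowest.

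As background for these separations, every ppi1 array lay above every WT array for 2.14% of the 3365 features tested and below every WT array for 3.95%. Among the features with 1 gene, Cpn60beta3 stood 10th of the 20 that passed the test as higher in ppi1. Its neighbours in that order were AT5G10910 (log2 change 0.38) just inside and AT1G78620 (0.34) just outside. AT1G68660 stood 8th of the 30 that passed as lower, between AT4G29750 and AT1G34270 (-0.67), of which AT4G29750 was at -0.75 as well. Passing means an adjusted p under 0.05 in limma, which 8.44% of all features did, 3.15% as higher and 5.29% as lower in ppi1. The split depended on the scaling, with 106 higher and 178 lower after quantile normalisation, 805 and 104 on the deposited scale, and 80 and 336 with median scaling. It also depended on how neighbouring arrays were treated: 99 features passed with them as a random block (28 higher, 71 lower) and 4 with them averaged (0 higher, 4 lower). These values chose both genes and are not evidence about them.

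The position of a feature among all features of its own array needs no scaling between arrays. Cpn60beta3 stood at the 40.0 to 55.1 percentile of intensity on the ppi1 arrays and at the 27.0 to 38.3 percentile on the WT arrays. AT1G68660 stood at the 34.9 to 64.3 percentile on the ppi1 arrays and at the 77.0 to 80.5 percentile on the WT arrays. The groups did not overlap by rank for either gene. Quantile normalisation sets each value by its rank on the array, so this repeats the separation given above and is no second check. The chaperonin feature lay below the middle of the array in WT and around it in ppi1, and the ClpS1 feature ranked among the brighter features in WT alone. On the deposited scale, Cpn60beta3 was 0.508 to 0.634 in ppi1 and 0.289 to 0.417 in WT, and AT1G68660 was 0.455 to 0.838 in ppi1 and 0.937 to 1.03 in WT.

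Setting folding against degradation within each array removes any single scale factor of that array. The log2 value of Cpn60beta3 minus that of AT1G68660 was -0.51 at the lowest, -0.34 at the median and 0.17 at the highest over the ppi1 arrays, against -1.71, -1.38 and -1.21 over the WT arrays. The 2 groups were separated by a gap of 0.70. The mean was -0.28 ± 0.252 in ppi1 and -1.40 ± 0.178 in WT (SD, n = 6 each), so the balance shifted towards the chaperonin feature by 1.12 on the log2 scale, or 2.17-fold. The shift between arrays of the same number ran from 0.80 to 1.52. On the deposited scale it was 1.19, and a factor applied to a whole array cannot change it. The shift combines the 2 differences of opposite sign for which the genes were chosen, so it adds no evidence about them. The levels of 2 features cannot be read as amounts of 2 transcripts, and only the change of their difference between the groups is described.

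**Figure D2:**
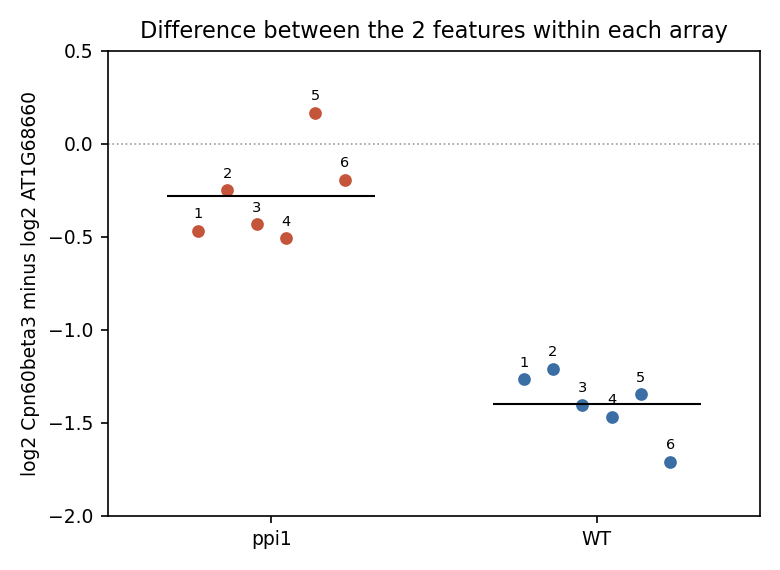
Difference between the log2 intensities of Cpn60beta3 and AT1G68660 within each array (y axis, log2 units), for the 6 ppi1 arrays and the 6 WT arrays; digits are replicate numbers and horizontal lines are group means. The ppi1 arrays lie between -0.51 and 0.17 and the WT arrays between -1.71 and -1.21, with only ppi1 replicate 5 above 0.

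The genes differed in how much they varied between arrays. For Cpn60beta3 the SD of the log2 values was 0.167 in ppi1 and 0.151 in WT. For AT1G68660 it was 0.353 in ppi1 and 0.0490 in WT, a ratio of 7.19. Of the 2860 features above the floor on every array, 16 (0.559%) had a ratio that high, and the median ratio was 1.27. This comparison was made after the spread had been seen and carries no test.

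The spread of AT1G68660 in ppi1 lay mostly in the neighbouring replicates 5 (0.409) and 6 (0.529). They also differed from each other by 0.37 on the log2 scale, against 0.0030 and 0.15 within the other ppi1 sets. The set means were 0.744 for ppi1 replicates 1 and 2, 0.700 for replicates 3 and 4, and 0.469 for replicates 5 and 6, against 1.04, 1.03 and 1.07 in the matching WT sets. The drop in ppi1 replicates 5 and 6 was thus not seen on the WT arrays of the same numbers. With replicates 5 and 6 left out of both groups, the log2 difference of AT1G68660 was -0.52, and without replicates 1 and 2 it was -0.88. ppi1 stayed below WT in every set, by its set means. The set means of Cpn60beta3 were 0.582, 0.505 and 0.461 in ppi1 and 0.439, 0.381 and 0.373 in WT, and its log2 difference was 0.36 to 0.40 when any 1 of the sets was left out. For Cpn60beta3 the set with replicates 1 and 2 thus had the highest mean in both groups. The order of the other sets was unclear in WT. There replicates 5 (0.411) and 6 (0.334) lay on either side of replicates 3 (0.375) and 4 (0.387).

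Of 130 listed loci for folding and degradation in plastids, mitochondria and cytosol, 10 had a feature of their own, and gene names added CCS and TPP2. Without Cpn60beta3 and AT1G68660 that left 4 folding and 6 degradation genes, which were chosen by list and not by their values. One of the 6, AT5G49840, was at the floor on all 12 arrays and could not pass, which left 5. In limma over all features, 0 of the 4 folding genes and 0 of the 5 degradation genes passed, against 8.44% of all features. At an unadjusted p under 0.05, 1 of the 4 and 0 of the 5 passed, against 22% of all features. The exact permutation test also called 0 of either list. Over all features it called 72 as higher and 133 as lower, the same numbers as those whose groups did not overlap. The groups of all these genes overlapped, so this test adds nothing to the limma result. The median log2 change was -0.04 over the folding genes and -0.10 over the 5 degradation genes, and 0.0050 over all features. The folding median rests on 2 positive changes (0.28 and 0.24) and 2 negative ones (both -0.32). CCS, which does not fold chains, is among the negative ones, so the near-zero median depends on counting it. A further 8 features were annotated to several genes, at least 1 of them in these lists. They are not named, and 0 passed (lowest adjusted p = 0.157 in limma).

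**Figure D3:**
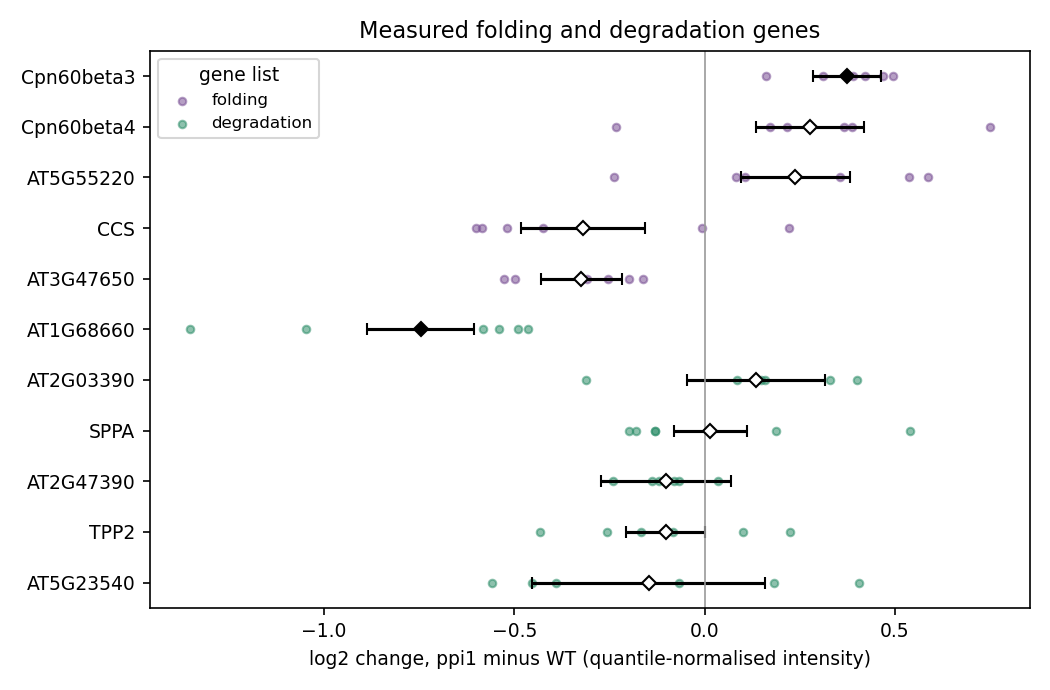
Log2 change (ppi1 minus WT, x axis) of the measured folding genes (purple) and degradation genes (green). Small dots are the 6 differences between arrays of the same number, and diamonds with bars are the mean and its standard error in limma, filled for Cpn60beta3 (0.37) and AT1G68660 (-0.75), which were chosen on these values. The other genes lie between -0.32 and 0.28, and AT5G49840, at the floor on every array, is not drawn.

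Of the 9 listed plastid chaperonin and co-chaperonin genes, the other one with a feature of its own was Cpn60beta4 (AT1G26230), a beta subunit known for folding NdhH, a subunit of the chloroplast NADH dehydrogenase-like complex. Its level was 0.307 at the lowest, 0.498 at the median and 0.539 at the highest in ppi1, against 0.321, 0.384 and 0.414 in WT. The groups overlapped through ppi1 replicates 2 (0.396) and 3, and replicate 3 was the lowest of the 12 arrays. Between arrays of the same number, ppi1 was higher in 5 of 6. The log2 change was 0.28 (95% interval -0.04 to 0.59, adjusted p = 0.284 in limma), beside 0.37 for Cpn60beta3. It passed in limma without ppi1 replicate 3 (0.39, adjusted p = 0.0472) and on the deposited scale (0.55, adjusted p = 0.0154). On that scale 909 of the 3365 features passed, 805 of them as higher, and the median feature was itself 0.21 higher. How far the features pick up each other's transcripts was not tested.

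The other folding genes had differences of either sign. AT3G47650, the Rubisco assembly chaperone BSD2, was 1.28 at the lowest, 1.40 at the median and 1.89 at the highest in ppi1, against 1.53, 1.87 and 2.16 in WT. It was lower in ppi1 in 6 of 6 numbers, and its groups overlapped through ppi1 replicate 3. Its log2 change of -0.32 (95% interval -0.56 to -0.09) did not pass (adjusted p = 0.0909 in limma). It did pass with the replicate number as a block (adjusted p = 0.0214), a fit in which 15.4% of all features passed, with median scaling (-0.55, adjusted p = 0.00229) and without ppi1 replicate 3 (-0.40, adjusted p = 0.0223). With neighbouring arrays as a random block or averaged, its adjusted p in limma was 0.441 and 0.450.

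AT5G55220, a trigger factor, which binds chains as they leave the ribosome in bacteria, had a log2 change of 0.24 (95% interval -0.08 to 0.55, adjusted p = 0.370 in limma). It lay near the floor of 0.118, with 1 ppi1 array and 3 WT arrays at it, and passed on the deposited scale (0.46, adjusted p = 0.0355). CCS (AT1G12520), found by the word chaperone, delivers copper to superoxide dismutase and does not fold chains. It had a log2 change of -0.32 (95% interval -0.68 to 0.04, adjusted p = 0.284 in limma), with 4 ppi1 arrays at the floor. In limma it passed without ppi1 replicate 2 (-0.46, adjusted p = 0.0262) and with replicates 1 and 2 left out of both groups (-0.53, adjusted p = 0.00199). The change was smaller on the deposited scale (-0.03, adjusted p = 0.895) and with cyclic loess (-0.13, adjusted p = 0.658).

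Among the degradation genes, AT2G03390 encodes ClpF, the partner adaptor of ClpS1. Its level was 0.295 at the lowest, 0.441 at the median and 0.568 at the highest in ppi1, against 0.266, 0.387 and 0.509 in WT. The groups overlapped widely, with ppi1 higher in 5 of 6 numbers. The log2 change was 0.14 (95% interval -0.27 to 0.54, adjusted p = 0.752 in limma), beside -0.75 for AT1G68660. The difference between these changes was not tested, since AT1G68660 was chosen for its decrease. AT5G49840, which was at the floor, encodes a ClpX unfoldase of mitochondria.

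The intervals of the remaining degradation genes all spanned 0. SPPA (AT1G73990), a thylakoid protease, was 0.698 ± 0.0934 in ppi1 and 0.690 ± 0.0749 in WT (SD, n = 6 each), a log2 change of 0.02 (95% interval -0.19 to 0.22, adjusted p = 0.985 in limma). AT2G47390, a glutamyl endopeptidase of the chloroplast, was at -0.10 (95% interval -0.48 to 0.27, adjusted p = 0.819 in limma). TPP2 (AT4G20850), the cytosolic tripeptidyl peptidase, was at -0.10 (95% interval -0.33 to 0.13, adjusted p = 0.646 in limma). AT5G23540, the deubiquitinating lid subunit RPN11 of the proteasome, was at -0.15 (95% interval -0.82 to 0.53, adjusted p = 0.876 in limma), the widest interval of these genes. On the deposited scale the last 3 had positive changes (0.18, 0.25 and 0.13), near the 0.21 shift of the median feature. SPPA was at -0.03 with median scaling.

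**Figure D4:**
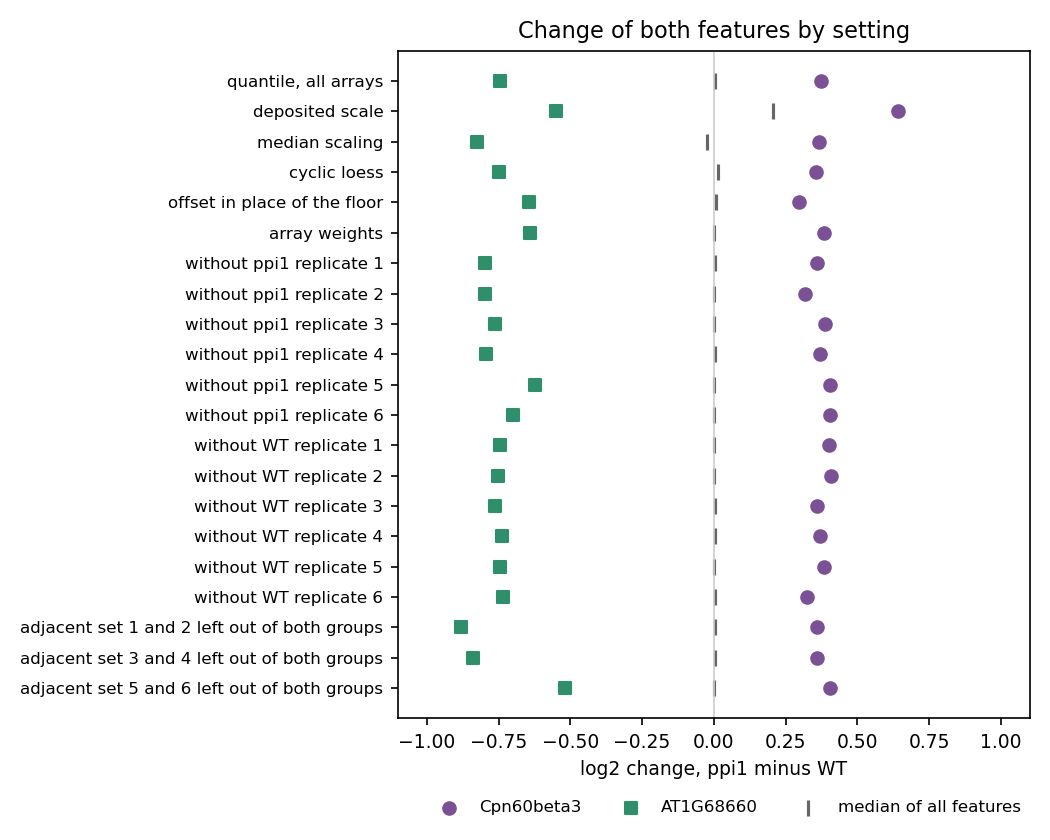
Log2 change (ppi1 minus WT, x axis) of Cpn60beta3 (circles), AT1G68660 (squares) and the median of all features (ticks), by scaling, floor, array weights and the arrays left out. Cpn60beta3 stays positive (0.30 to 0.64) and AT1G68660 negative (-0.88 to -0.52) throughout, and the deposited scale moves both, with the median at 0.21.

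Under every scaling tried, Cpn60beta3 was higher and AT1G68660 lower in ppi1. On the deposited scale the log2 differences were 0.64 and -0.55. Relative to the median feature of that scale they were 0.44 and -0.76, against 0.37 and -0.75 after quantile normalisation. Leaving out 1 array at a time gave 0.32 (without ppi1 replicate 2) to 0.41 (without WT replicate 2) for Cpn60beta3 and -0.80 (without ppi1 replicate 1) to -0.62 (without ppi1 replicate 5) for AT1G68660.

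The genes whose signal followed each member most closely from array to array, apart from the group difference, were found by Pearson correlation of log2 values centred on each group's mean, over 12 arrays and 561 other genes. The arrays share replicate numbers and neighbouring sets, so these are descriptions. For Cpn60beta3 they were AT4G38040 (r = 0.929), AT3G26580 (r = 0.922) and AT1G24310 (r = 0.844), and the most opposed was AT4G08630 (r = -0.844). Each of these kept its sign within ppi1 and within WT, from 0.848 to 0.956 in size for the 3 positive ones. For AT1G68660 they were GH9B16 (r = 0.820), LPA19 (r = 0.819), a photosystem II assembly factor, and AT3G55070 (r = 0.817), and the most opposed was AT3G16760 (r = -0.934). Of these, GH9B16 and AT3G55070 followed it in ppi1 (0.886 and 0.921) but not in WT (-0.31 and -0.41), where AT1G68660 hardly varied. The median size of r over all 561 genes was 0.396 for Cpn60beta3 and 0.456 for AT1G68660. In the comparison of ppi1 with WT these 8 genes had limma adjusted p-values between 0.160 and 0.929.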

How the data were processed

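The deposited values are linear hybridisation intensities, 1 for each feature on each array. The labels give neither the array type nor the authors' background subtraction and scaling. Of 3439 features, 74 at 0 on every array were left out as blanks. The other 3365 were quantile-normalised, raised to a floor of 0.118 (5th percentile of positive values) and put on the log2 scale. The comparison of ppi1 with WT used limma 3.58.1 in R 4.3.3 over 12 arrays, with Benjamini-Hochberg adjustment over all features. The fit was also tried on simulated data with independent arrays, which does not cover the likeness of neighbouring arrays. Precision is limited by the number of arrays.

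Names came from the 2016 annotation of the platform, brought up to date by identifier in the TAIR10.1 gene table. The annotation gave 692 features 1 gene, 870 several and 1877 none, and 2 identifiers were not in the gene table. No probe or gene sequence was used. Named besides Cpn60beta3 and AT1G68660 are their neighbours in the order of changes, the listed folding and degradation genes, and by rule the 3 most and the 1 least correlated genes. A word list for the ubiquitin system found 0 features, and mitochondrial and cytosolic chaperones 0 of 29 loci. Members and lists were chosen with earlier results of these data known.

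Same-numbered ppi1 and WT arrays deviated together from their group means (correlations 0.379 to 0.590). Each ppi1 array correlated best with the WT array of its own number, so numbers were taken to pair arrays. This pairing comes from the data, not the labels. The main limma fit used neither the pairing nor the likeness of neighbouring arrays. Its p-values, standard errors and intervals therefore treat all arrays as independent. That fit called 284 features, against 517 with the replicate block and 99 with neighbouring arrays as a random block. Alternatives covered scaling, floor, dim features, variance model, array weights, the replicate block, exact permutation of 924 splits, each array left out, and neighbouring arrays averaged, as a random block or left out.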

Additional observations from a re-analysis of the deposited data

Results flagged for a closer look

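Over 22 groups of 6 normalised values from the folding and degradation genes, Dixon's test marked 4 in which 1 array lay far from the other 5. Its rate of about 1 group in 20 holds for independent, normally distributed values. Values at the floor and neighbouring arrays that lie close break this, so the 4 cannot be compared with that rate. Neither Cpn60beta3 nor AT1G68660 was among them. On ppi1 replicate 3, AT3G47650 read 1.89 while the remaining ppi1 arrays spanned 1.28 to 1.46, and SPPA read 0.881 while they spanned 0.631 to 0.709. On ppi1 replicate 2, CCS read 0.212 while the rest of ppi1 spanned 0.118 to 0.121, and 4 of those sat at the floor. On WT replicate 1, CCS read 0.118 while the rest of WT spanned 0.158 to 0.182.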

How the results depend on the processing

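The log2 difference of AT1G68660 and the shift between Cpn60beta3 and AT1G68660 moved by less than the spread between arrays under every setting run. The log2 difference of Cpn60beta3 did so under every setting but the deposited scale (0.64). For AT1G68660 the spread (pooled SD 0.252) takes in the low ppi1 replicates 5 and 6. Leaving out 1 array gave 0.32 to 0.41 for Cpn60beta3, -0.80 to -0.62 for AT1G68660 and 1.03 to 1.17 for the shift. Leaving out neighbouring sets was chosen after the data were seen and gave 0.92 to 1.24 for the shift. In this balanced design the replicate block, and neighbouring sets as a random block or averaged, cannot move these differences. Nor can leaving out dim features, so these settings are no check on them. The replicate block gave 517 called features (250 higher, 267 lower) against 284 (106 and 178). The deposited scale gave 909 (805 and 104), median scaling 336 lower, the random block of neighbouring sets 99 (28 and 71), and their averages, with fewer values to test, 4 (0 and 4, with 398 at an unadjusted p under 0.05). Leaving out 1 array gave 222 to 277 (75 to 114 higher, 147 to 173 lower). Of the 4 other folding genes, 2 passed on the deposited scale (AT5G55220 and Cpn60beta4), 1 with median scaling and 1 with the replicate block (both AT3G47650), 1 with replicates 1 and 2 left out of both groups (CCS), and 0 to 2 when 1 array was left out, while 0 of the 5 measurable degradation genes passed under any setting. Over 26 alternatives each, adjusted p ran from 0.00229 to 0.463 for AT3G47650, 0.0154 to 0.803 for Cpn60beta4, 0.0355 to 0.873 for AT5G55220 and 0.00199 to 0.895 for CCS. The replicate block changed no other call of these genes. Signs turned for AT2G47390 (0.18), AT5G23540 (0.13) and TPP2 (0.25) on the deposited scale, for TPP2 with cyclic loess (0.0468), for TPP2 with replicates 5 and 6 left out of both groups (0.0185), and for SPPA with median scaling (-0.0275) and with replicates 3 and 4 left out of both groups (-0.159). SPPA ran from -0.0537 to 0.0503 when 1 array was left out, and was negative in the fits that dropped ppi1 replicate 3, WT replicate 3 (-0.0210) or WT replicate 4 (-0.0283). The cause was not tested.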
